A study of Caenorhabditis elegans with 2 samples.

Results

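The p97 ATPase genes of Caenorhabditis elegans and the genes of their main cofactor were examined for binding of ELT-3, a GATA factor of the worm's epidermis. They are the 6 genes cdc-48.1, cdc-48.2, cdc-48.3, ufd-1, npl-4.1 and npl-4.2, out of 19973 protein-coding genes on the nuclear chromosomes. The set was put together by function around cdc-48.1, which was chosen by its strong ELT-3 peak in these data. Its peak is therefore given as a description, and no test was made of it. Binding was mapped by chromatin immunoprecipitation sequencing (ChIP-seq) in L1 larvae, the first larval stage, of strain OP75, genotype unc-119(ed3) III; wgIs75. There was 1 group of 2 biological replicates, taken from mixed-sex whole animals that stably express ELT-3 fused at its C terminus to GFP-FLAG. The labels do not say which promoter drives the transgene, and all animals carry both the transgene and the unc-119 mutation. No second condition and no untagged strain were analysed here.

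p97, called CDC-48 in worms, is a ring-shaped AAA ATPase that uses ATP to pull ubiquitin-marked proteins out of membranes, complexes and chromatin. Its cofactor of UFD-1 and NPL-4 binds the ubiquitin chains and hands the marked protein to the ATPase. One well-known use is ER-associated degradation, in which misfolded proteins are drawn from the endoplasmic reticulum and passed to the proteasome. Worms have a pair of p97 genes, cdc-48.1 and cdc-48.2, and a pair of NPL4 genes, npl-4.1 and npl-4.2.

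The sequences just before the starts of both p97 genes are shown because the peak for which cdc-48.1 was picked lay in its own. No peak of the thresholded set lay in that of its paralog, as is the case for most genes: 6.37% of all protein-coding genes had such a peak anywhere from 2000 bp upstream of the start to the gene end. Each runs 5′ to 3′ along the gene and ends at the base before the annotated start (Ensembl starts, bases from the RefSeq copy of WBcel235, the ce11 build). For cdc-48.1 (chrII:10563408-10563657, minus strand) capitals mark the 97 bp of the peak. For cdc-48.2 (chrII:8138246-8138495, plus strand) capitals mark the single match to the GATA motif.
cdc-48.1: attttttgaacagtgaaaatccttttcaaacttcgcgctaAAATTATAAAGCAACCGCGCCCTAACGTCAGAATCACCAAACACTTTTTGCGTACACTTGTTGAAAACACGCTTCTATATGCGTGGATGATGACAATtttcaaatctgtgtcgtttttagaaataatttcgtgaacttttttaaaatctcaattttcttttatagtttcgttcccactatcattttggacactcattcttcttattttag
cdc-48.2: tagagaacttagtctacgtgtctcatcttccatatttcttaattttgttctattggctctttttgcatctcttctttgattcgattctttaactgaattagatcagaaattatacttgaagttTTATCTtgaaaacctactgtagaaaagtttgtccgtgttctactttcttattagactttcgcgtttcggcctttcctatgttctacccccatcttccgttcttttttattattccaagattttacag

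The 4 lists of peaks read were these: 1 for each replicate, with 25325 peaks in replicate 1 and 26500 in replicate 2, 1 for the pooled replicates, with 5659 peaks, and the authors' thresholded set of 1262. The thresholded set is the 1262 strongest peaks of the pooled list, kept for reproducibility between the lists. The other lists include background peaks by design. Signal is the strength that the authors gave each peak. Its scale is not stated, so values are read within a list, and rank 1 is the strongest peak of a list. A gene's window ran from 2000 bp upstream of its first annotated start to its end, and a peak counted with at least 1 bp of overlap. Read depth is unknown, and in whole larvae a site bound strongly in few cells cannot be told apart from one bound weakly in many.

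Of the 6 genes, 1 had a peak of the thresholded set in its window, cdc-48.1. Under the same rule 6.37% of all protein-coding genes had one (1272 genes, 95% Wilson interval 6.04 to 6.72%). Because cdc-48.1 was picked for its peak, only the 5 other genes could have shown more, and none of them had one. With so low a background share, 0 of 5 is not a result about these genes. In the whole pooled list 2 of the 6 genes had a peak, cdc-48.1 and cdc-48.3, against 24.1% of all genes. In replicate 1 the count was 4, without npl-4.1 and npl-4.2, against 70.7%, and in replicate 2 it was 4, without cdc-48.2 and npl-4.2, against 72.1%. A single replicate list thus places a peak in most gene windows. Peaks of both replicates that overlapped each other lay in the windows of 35.4% of all genes and of 1 of the 6, cdc-48.1.

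**Figure D1:**
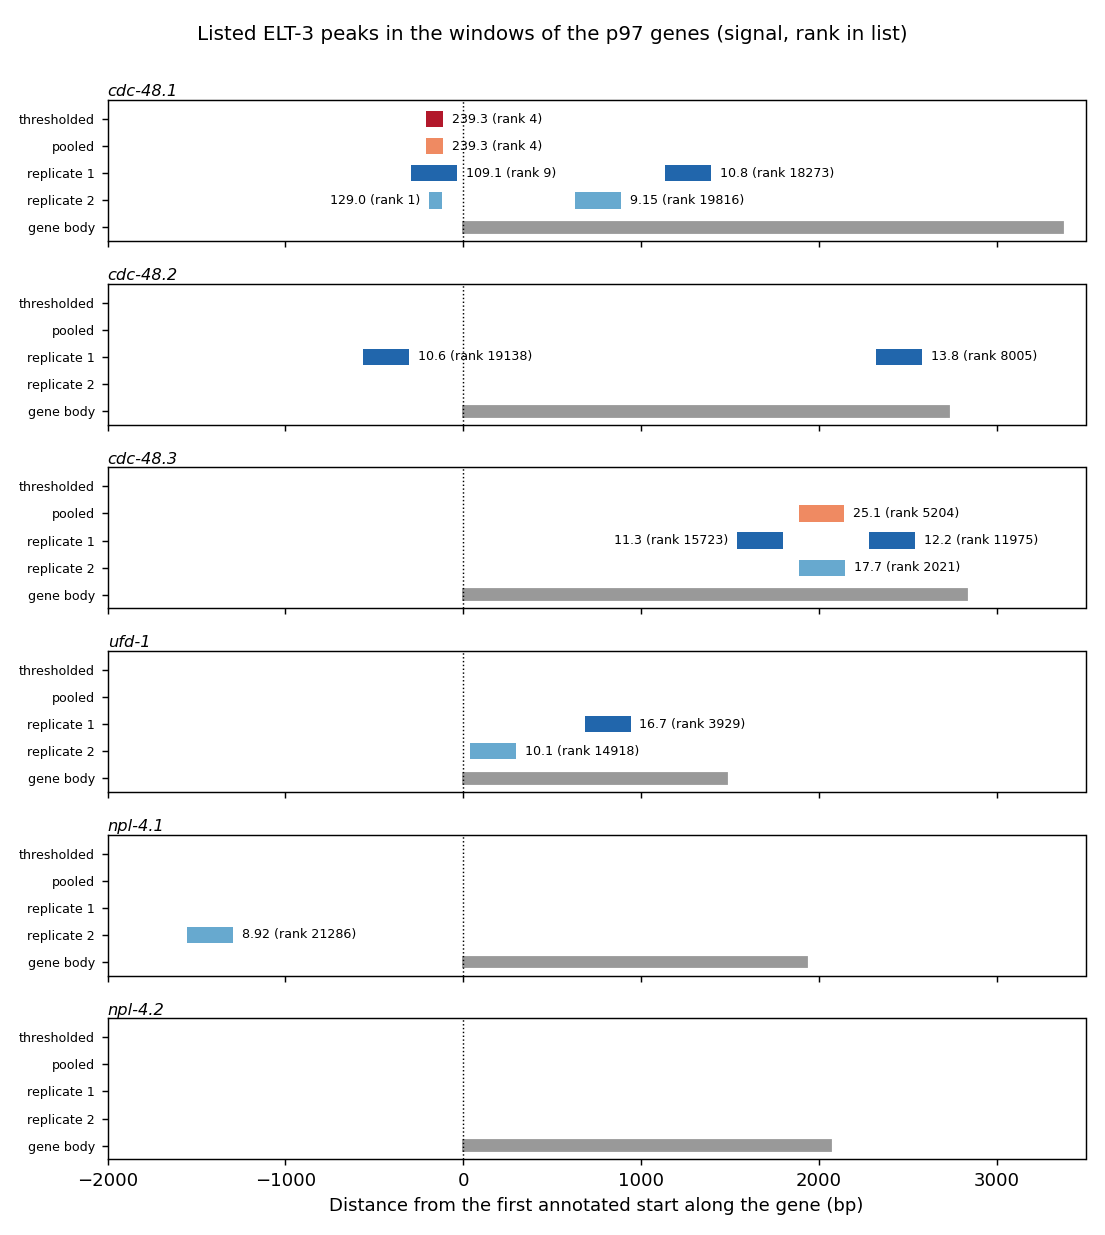
Listed ELT-3 peaks in the window of each gene, by distance in bp from its first annotated start along the gene (dotted line), with the gene body in grey. Each bar is a peak of the list named on the left, with its signal and rank. The peaks at cdc-48.1 upstream of the start coincide in all 4 lists, and npl-4.2 has none.

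cdc-48.1 (WBGene00007352, chrII:10560036-10563407, minus strand) encodes one of the p97 ATPases. Its peak had a signal of 239.3 in the pooled and thresholded lists, where it ranked 4, behind the peaks at elt-3 (271.5), rpl-15 (243.9) and rpl-3 (243.1) and ahead of the one at Y17G9B.5 (223.3). In replicate 1 its signal was 109.1, rank 9. In replicate 2 it was 129.0, rank 1, the strongest of all 26500 peaks. So the site was near the top of each replicate, though not at the same place in the order. The gene was picked for its strong peak and the pool holds both replicates, so these ranks are a description. Of the 1253 thresholded peaks with a value in both replicates, 6, this one included, had a worse replicate rank of 9 or better. Its −log10 q of 2.76 in the pooled list is the ceiling of that list, which 289 peaks share.

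The cdc-48.1 peak spanned chrII:10563521-10563617, 97 bp, with its summit 163 bp upstream of the start. In replicate 1 the summit was also at 163 bp upstream and the peak had the usual width of that list, 260 bp. In replicate 2 the summit was at 172 bp and the peak was 71 bp wide. The 9 bp between the replicate summits compares with a median of 17.0 bp over the thresholded peaks, and 35.5% of them were at least as close, so this distance is an ordinary one. Of the thresholded peaks, 1256 had the same width of 256 bp and 6 were narrower. The narrower ones were those nearest to elt-3, cdc-48.1, Y17G9B.5, H10E21.1, Y37A1A.2 and mstr-1, and all ranked between 1 and 22. In replicate 2 the cdc-48.1 peak was the only one of 26500 narrower than 260 bp.

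The peak lay in the 704 bp between cdc-48.1 and C06A1.6, a gene on the same strand whose end faces the cdc-48.1 start. The nearest protein-coding start was that of cdc-48.1. The peak also fell within the 2000 bp upstream of C06A1.7, on the other strand. Inside the cdc-48.1 gene body each replicate listed 1 more peak, in coding exons 1263 bp (replicate 1, signal 10.8, rank 18273) and 758 bp (replicate 2, signal 9.15, rank 19816) from the start. These do not coincide, and neither is in the pooled list.

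**Figure D2:**
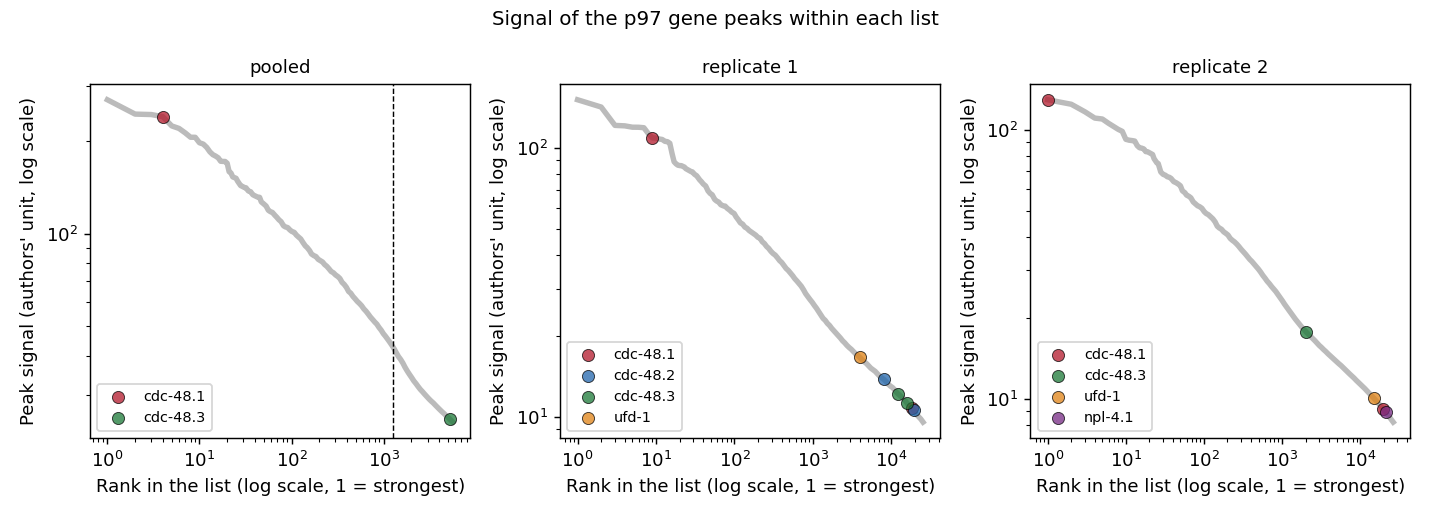
Peak signal against rank on log axes in the pooled list and in each replicate, with the whole list as a grey line and the peaks in the windows of the p97 genes as points. The dashed line in the pooled panel marks rank 1262, the end of the thresholded set. In each panel 1 cdc-48.1 peak stands at the upper left, at rank 4, 9 and 1, and the other points lie at rank 2021 or lower down.

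ELT-3 belongs to a family whose members bind GATA sequences, so the motif WGATAR, where W stands for A or T and R for A or G, was sought on both strands. No WGATAR lay within 50 bp of the cdc-48.1 summit, and the 97 bp of the peak held not even the core GATA. In all, 634 of 1262 thresholded summits, 50.2%, had WGATAR within 50 bp (95% Wilson interval 47.5 to 53.0%), and 68.3% had the core. The nearest match upstream of cdc-48.1 was TGATAG on the strand opposite to the gene, 34 to 29 bp before the start and 131.5 bp from the summit. It lies outside the peak and reads ctatca in the sequence above. Of all 250 bp stretches before protein-coding starts, 49.1% held WGATAR and 81.4% the core, so such a match is common there. These stretches are longer than the 101 bp searched around a summit, so their shares cannot be compared with those of the summits. A match to WTRTCAT, a form of the sequence known for the stress factor SKN-1, lay at the downstream edge of the peak, 45 bp from the summit. This motif was chosen after the data were seen, and 16.4% of thresholded summits had it within 50 bp, as did 3987 of the 19973 stretches of 250 bp. The 101 bp around the summit were 39.6% G or C, against a median of 43.6% over the thresholded summits, 29.6% of which were lower.

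The peaks most like that of cdc-48.1, by their ranks in the pooled list and both replicates (Euclidean distance of log2 rank over the 3 lists), were those nearest to rpl-15, iff-2, Y17G9B.5, rpl-3 and puf-9, at distances of 2.12 to 3.21. rpl-15 and rpl-3 encode proteins of the large ribosomal subunit, iff-2 a translation factor of the eIF5A family and puf-9 an RNA-binding protein of the Pumilio family. In replicate 2 the signal was 129.0 at cdc-48.1, against 102.6 to 124.1 at these 5. In replicate 1 it was 109.1 at cdc-48.1, against 95.6 to 142.1. In replicate 2 cdc-48.1 was the strongest peak of the list, so it stood above all 5 there by definition. In replicate 1 it was below 3 of them. The 5 were chosen by these same ranks, so the order is only a description. All 6 summits lay 75 to 348 bp upstream of the nearest start, and none had WGATAR within 50 bp. The core GATA lay within 50 bp at iff-2, Y17G9B.5 and puf-9, and not at cdc-48.1, rpl-15 or rpl-3. In base composition they were apart, with 39.6% G or C at cdc-48.1 and 50.5 to 61.4% in the 5.

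The 41 bases centred on each of these summits are shown on the forward strand of ce11, because they are strong sites without WGATAR near the summit. Capitals mark TACAC or its reverse complement, a run noticed on reading them and therefore chosen after the fact. They are at chrII:10563550-10563590 for cdc-48.1, chrIV:654904-654944 for rpl-15, chrII:8561422-8561462 for iff-2, chrIV:4750060-4750100 for Y17G9B.5, chrIII:3867558-3867598 for rpl-3 and chrX:5841300-5841340 for puf-9.
cdc-48.1: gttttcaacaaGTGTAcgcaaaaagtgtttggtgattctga
rpl-15: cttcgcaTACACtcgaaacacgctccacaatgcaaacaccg
iff-2: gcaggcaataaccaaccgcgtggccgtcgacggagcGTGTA
Y17G9B.5: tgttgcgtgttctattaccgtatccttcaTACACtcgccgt
rpl-3: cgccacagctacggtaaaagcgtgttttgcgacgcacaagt
puf-9: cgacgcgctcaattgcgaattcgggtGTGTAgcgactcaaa
The run is in 5 of the 6 sequences, in all but that of rpl-3.

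**Figure D3:**
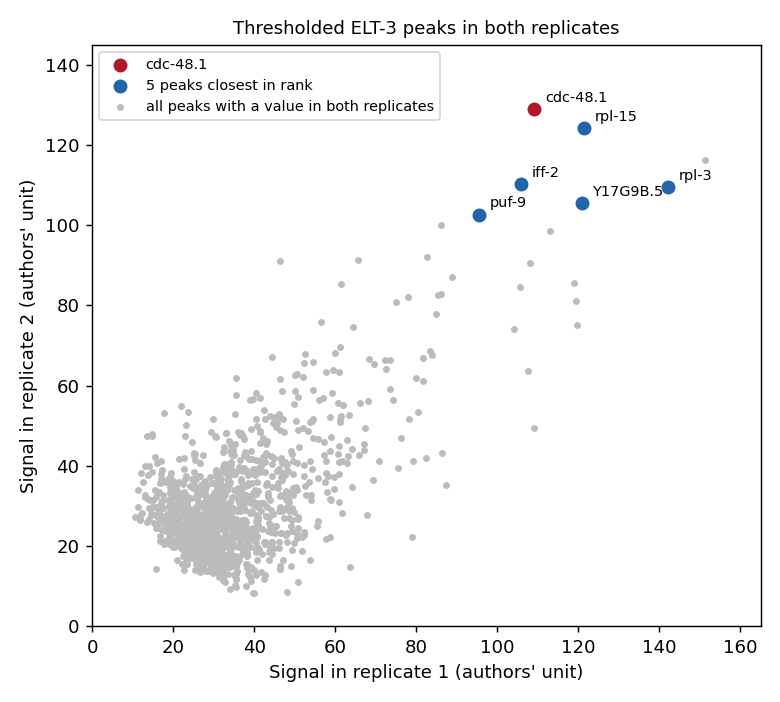
Signal of each thresholded peak in replicate 1 (x axis) and replicate 2 (y axis), in the authors' unit, with cdc-48.1 in red, the 5 peaks closest to it in rank in blue and the 1253 peaks with a value in both replicates in grey. cdc-48.1 is the highest point on the replicate 2 axis, at 129.0, and stands at 109.1 on the replicate 1 axis.

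cdc-48.2 (WBGene00008053, chrII:8138496-8141230, plus strand) encodes the other p97 ATPase. Its window had no peak in the thresholded, pooled or replicate 2 lists. Replicate 1 listed 2, at 432 bp upstream of the start with a signal of 10.6 (rank 19138) and in a coding exon 2452 bp downstream with 13.8 (rank 8005). The median signal of that list is 12.1 and the lowest 9.56, so the first value was below the median and the second above it. As high a rank as 8005 in replicate 1 was reached in the windows of 32.7% of all genes. The nearest thresholded peak was 6636 bp from the start (signal 54.8, rank 681). The summit at 2452 bp had 1 WGATAR within 50 bp. The cdc-48.2 sequence shown above holds 1 WGATAR, as does that of cdc-48.1: AGATAA lay 127 to 122 bp before the start, and no listed peak covers it. Both 250 bp stretches had much the same base composition, with 32.8% G or C at cdc-48.1 and 33.2% at cdc-48.2, and the median of all genes was 33.2%.

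cdc-48.3 (WBGene00010562, chrI:8032863-8035696, minus strand) encodes a more distant AAA ATPase, related to Afg2 of yeast. It had a peak in the pooled list, in a coding exon 2016 bp downstream of the start, with a signal of 25.1 and rank 5204 of 5659. The weakest thresholded peak had 42.9 and the weakest pooled peak 24.5, so this one lies near the bottom of the list. Replicate 2 listed a peak 2018 bp downstream with a signal of 17.7, rank 2021. In 9.86% of all genes the window held a peak of replicate 2 at that rank or better. Replicate 1 listed 2 peaks in coding exons, 2410 bp (signal 12.2, rank 11975) and 1668 bp (signal 11.3, rank 15723) downstream, and neither overlapped the peak of replicate 2. The gene has a close divergent neighbour, K04G2.4, 101 bp away, and no list had a peak between them. The 250 bp before the cdc-48.3 start held AGATAA in 2 places, ending 174 and 116 bp before it, both beyond the gap and inside K04G2.4. All of these peaks but the one at 2410 bp also fell in the window of K04G2.4, and the start nearest to that one was of aho-3, 2327 bp away.

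ufd-1 (WBGene00006733, chrIV:12329408-12330890, minus strand) encodes the ubiquitin-binding cofactor that works as a pair with NPL-4. Its window had no pooled or thresholded peak. Replicate 1 listed a peak in a coding exon 811 bp downstream of the start, with a signal of 16.7 and rank 3929, and replicate 2 one in a coding exon 167 bp downstream, with 10.1 and rank 14918. The replicates therefore placed their ufd-1 peaks at different sites. A peak of replicate 1 ranked as high as 3929 lay in the windows of 17.6% of all genes. The start of ufd-1 is 85 bp from the end of F19B6.1 on the same strand, so its upstream window lies almost wholly in the body of that gene, and the nearest thresholded peak was 60442 bp away.

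npl-4.1 (WBGene00019120, chrII:5631351-5633284, plus strand) and npl-4.2 (WBGene00019121, chrII:5622889-5624959, plus strand) encode the other subunit of the cofactor. They are close copies whose starts lie 8462 bp apart. npl-4.2 was the 1 gene of the 6 with no peak in any list. npl-4.1 had a single peak, in replicate 2 alone, 1425 bp upstream with a signal of 8.92 and rank 21286, near the lowest signal of that list, 8.19. Its summit was nearest to the start of F59E12.6, the divergent neighbour, and it also lay in the window of F59E12.15. Running back from both starts, 1325 bases were the same, so the 250 bp shown here for npl-4.1 (chrII:5631101-5631350) also stand before npl-4.2. Capitals mark the core GATA on either strand, and the stretch holds no WGATAR.
npl-4.1: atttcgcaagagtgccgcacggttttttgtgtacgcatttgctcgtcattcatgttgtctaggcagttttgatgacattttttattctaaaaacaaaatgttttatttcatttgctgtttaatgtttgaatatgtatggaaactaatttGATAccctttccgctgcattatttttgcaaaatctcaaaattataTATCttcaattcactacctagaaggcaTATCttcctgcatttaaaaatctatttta

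Reads from repeated sequence cannot be assigned to 1 copy, so each window was searched for runs of 36 bases that occur more than once in the genome on either strand. Neither the read length nor the treatment of such reads is stated. At npl-4.1, 75.1% of the positions in the window were repeated, and at npl-4.2 74.4%. In the gene bodies the shares were 85.6% and 83.4%, and upstream 65.6% for each. All of the repeated positions of npl-4.1, 2930 of them, were shared with npl-4.2. The replicate 2 peak of npl-4.1 held none, so it lay in the part of the window that is not repeated. The other genes differed: cdc-48.2 and cdc-48.3 had no repeated position, ufd-1 had 2, and cdc-48.1 had 487 upstream and none in its gene body or in its thresholded peak. Even the p97 pair shared no 36-base run. With runs of 50 bases the shares were 73.3% at npl-4.1 and 72.0% at npl-4.2. The part of repeated sequence in the lack of listed peaks at the npl-4 pair was not tested.

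**Figure D4:**
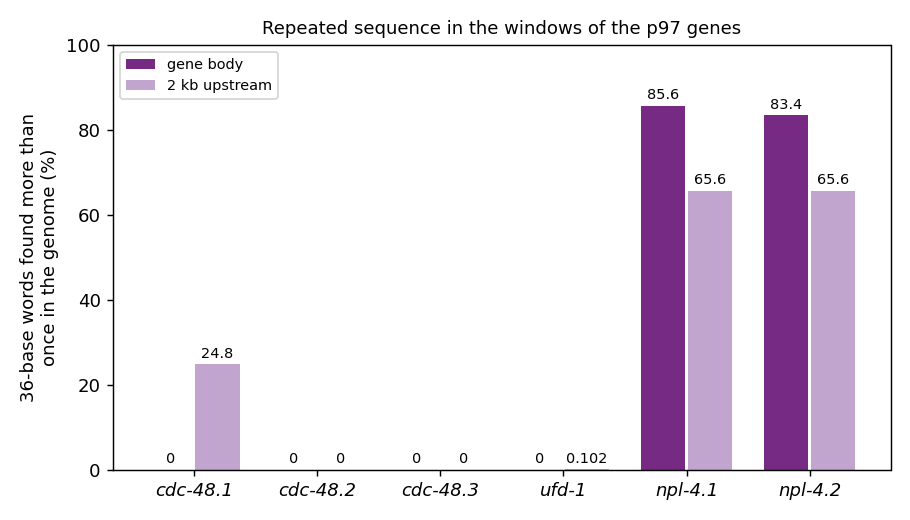
Share of positions in the gene body and in the 2 kb upstream of each gene where the 36-base run starting there occurs more than once in the genome, in percent. The shares are 65.6% or more at npl-4.1 and npl-4.2, and 24.8% upstream of cdc-48.1.

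Other genes of the pathway were taken from lists made by function. Of 14 p97 adaptor and partner genes, 1 had a thresholded peak, 7.14% beside the background of 6.37%. It was ufd-3, whose product is related to the ubiquitin-binding Doa1 of yeast, with a signal of 55.8 (rank 650) and a summit 122 bp upstream. In the replicates it ranked 1038 and 994, with signals of 26.0 in replicate 1 and 23.3 in replicate 2. C05C10.7 shares this peak in its window. In the whole pooled list 5 of the 14 had a peak, where 24.1% of all genes had one, and with so few genes nothing is read from the count. Besides ufd-3 these were ufd-2, a ubiquitin chain-extending enzyme (signal 25.6), and the UBX-domain genes ubxn-1 (26.3), ubxn-2 (26.7) and ubxn-6 (40.5). The ubxn-1 summit was nearer to the start of F23C8.8. The ubxn-6 peak, rank 1414, was below the 1262 of the thresholded set, and its summit was nearest to the start of the translation factor gene eif-1.A.

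Of 10 genes of ER-associated degradation, 2 had a thresholded peak, beside the background of 6.37%, and with so few genes nothing is read from the share. ubql-1, a ubiquilin that carries ubiquitin-marked proteins to the proteasome, had a signal of 86.0 (rank 164), with 47.1 in replicate 1 and 38.3 in replicate 2. The summit was 546 bp upstream, and the peak also lay in the window of pdi-3, a protein disulfide isomerase gene. ubc-7, a ubiquitin-conjugating enzyme, had a signal of 47.0 (rank 1012), with ranks of 796 in replicate 1 and 1472 in replicate 2, and its peak fell in the window of rpac-19 as well. Of the 3 thresholded peaks in these lists, that of ubc-7 had WGATAR within 50 bp of its summit. None of the 3 came near the rank of cdc-48.1 in any list. cdc-48.1 was picked for its strong peak, so this difference is no result about these genes. In the whole pooled list 3 of the 10 had a peak, beside 24.1% of all genes. The third was the ubiquitin-conjugating gene ubc-6 (signal 33.9, rank 2035). sel-1, sel-11, hrdl-1, marc-6, cup-2, der-2 and rnf-121 had no pooled peak.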

How the data were processed

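Per the labels, the samples are 2 biological replicates of ELT-3 ChIP-seq in L1 larvae. Per the labels' file lists, the authors made lists of peaks with background for either replicate and for both pooled, against control alignments, and kept as thresholded peaks those passing an irreproducible discovery rate cutoff. For the aligner, caller, read length and depth: not given in the sources used here. The deposited values are a signal per peak, of unstated scale, and a −log10 q-value within the list. Only the ce11 lists were used, and the annotation and genome are WBcel235, the same build.

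Overlap of peaks with gene windows, ranks, motif matches, base composition and repeated runs of bases were computed from these lists and the reference. The overlap and motif searches were tested on simulated data. With 1 group and 1 gene chosen for its value, no test between conditions was made. Wilson intervals are at 95% and cover counting error only. Genes named are the 6 members, genes sharing or nearest to their peaks, list genes with a thresholded peak and the genes at the 5 peaks closest in rank; other list genes and the strongest peaks were named after their values were seen. The members and lists were chosen with earlier results of these data known. Of the 13 genes listed for ER-associated degradation, 3 had no match by name and were left out. Alternatives were other windows, overlap rules, thresholds, motif windows and each replicate alone. Tables and overlaps were made with pandas 2.3.3 and numpy 2.4.6 in Python 3.11.15, intervals with scipy 1.17.1 and plots with matplotlib 3.10.9.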

Additional observations from a re-analysis of the deposited data

How the results depend on the processing

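cdc-48.1 was the member with a thresholded peak in every alternative run, which follows from its having been picked for its strong peak. With the whole pooled list the count of members was 2, with cdc-48.3 added. The rank of the cdc-48.1 peak ranged from 1 to 9 when either replicate was left out. No alternative, among 25 and 100 bp flanks, the core GATA and the pooled list, gave a member peak with the motif near its summit. The count was 0 throughout. It covered only the cdc-48.1 peak and, in the pooled list, also that of cdc-48.3. The flanks are nested, so their counts are not separate results. The replicate lists were not among these alternatives, and there the cdc-48.2 peak of replicate 1 at 2452 bp had 1 WGATAR within 50 bp. The share of all genes was 5.09% with 1 kb upstream, 4.77% without the gene body and 24.1% in the pooled list. With a replicate left out it was 5.94 to 6.42%. The whole replicate lists gave 70.7% and 72.1%, so only part of the remaining replicate's list was counted there. With peaks at or above the median signal of the thresholded set the share was 3.25%. With peaks at or above that median the adaptors had 0 genes and the ER-associated degradation list 1. In the pooled list the adaptors had 5. With a replicate left out, the degradation list had 1 to 2 genes, and without replicate 1 it lost ubc-7. The whole replicate 2 list does hold a ubc-7 peak, at rank 1472, outside the part counted. No paired analysis was possible because there is 1 group. Peak lists carry no read depth, so a site that is not listed may lie below detection.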

Other observations

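The run TACAC, on either strand, was no more than 20 bp from the summit in 5 of those 6 strong peaks from which it was read. Of the other 1256 thresholded summits, 101 had it, 8.04% (95% Wilson interval 6.66 to 9.68%). Windows centred 500 bp to the left and to the right of the same summits each had it in 5.10% (4.01 to 6.45%). The shifted windows belong to the same peaks, so the intervals are not independent. Whether they overlap is therefore not a test, and the shares are given as a description. Among the other summits ranked 1 to 100 the share was 11.7% (6.66 to 19.8%, 11 of 94). To the left it was 7.45% (3.65 to 14.6%) and to the right 6.38% (2.96 to 13.2%). Among the weaker summits, past rank 100, it was 7.75% (6.34 to 9.43%, 90 of 1162). There the shifted windows had 4.91% (3.81 to 6.30%) and 4.99% (3.88 to 6.40%). Summits without WGATAR had it in 8.84% of cases, against 4.34% and 4.18% in the shifted windows. Summits with WGATAR had it in 7.26% (5.48 to 9.54%), against 5.84% (4.26 to 7.94%) and 5.99% (4.40 to 8.12%). The source of these differences was not tested. Of all 250 bp stretches before protein-coding starts, 28.7% held TACAC. These stretches are longer than the 41 bp searched around a summit, so their share cannot be compared with those of the summits. Within the 250 bp before the p97 genes TACAC lay at cdc-48.1 and at the npl-4 pair, and not at cdc-48.2, cdc-48.3 or ufd-1. The run was chosen from these sequences, so the count of 5 in 6 supports nothing.

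The annotated starts of cdc-48.1, cdc-48.2, cdc-48.3 and ufd-1 directly follow the bases AG, as do 27.6% of all protein-coding starts, while those of the npl-4 pair do not. AG is also the end of a splice acceptor, and many worm messages are trans-spliced, in which case the annotated start is not where transcription begins. Distances to starts given here are to the annotated ones.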
